A study of Mus musculus with 5 samples.

Results

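The 9 genes described here encode receptors that decide where circulating leukocytes go: Ccr2, Cx3cr1, Cxcr4, Ccr7, Cxcr5, Cxcr3, Cxcr2, Ccr9 and S1pr1. They were found by symbol among the 33696 genes of the mouse blood count matrices, and all 9 were present with at least 1359 unique molecular identifiers (UMIs, each the tag of 1 captured mRNA molecule) over all cells. Their raw UMIs were summed within each cell class and library. The classes were built from other marker genes, and the receptors took no part in the clustering or the naming.

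Of these proteins, 8 bind chemokines, small secreted proteins that form gradients in tissues. S1pr1 instead senses sphingosine 1-phosphate, a lipid that is abundant in blood and scarce inside lymphoid organs. All signal through heterotrimeric G proteins. Ccr2 brings classical monocytes out of bone marrow, and Cx3cr1 is the fractalkine receptor that marks patrolling non-classical monocytes. Cxcr4 holds leukocytes in bone marrow, and Cxcr2 draws neutrophils out of it. Ccr7 leads naive lymphocytes into lymph nodes, Cxcr5 leads B cells into follicles, and S1pr1 lets lymphocytes leave again. Cxcr3 guides effector and memory T cells to inflamed tissue, and Ccr9 guides lymphocytes to thymus and small intestine.

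The samples were peripheral blood mononuclear cells of C57BL/6N mice, from a study that models heart failure with preserved ejection fraction by joining a high-fat diet with L-NAME, a blocker of nitric oxide synthesis. One library came from mice given high-fat diet and L-NAME that also received nitro-oleic acid (NO2-OA), an electrophilic fatty acid, over the last 4 of 15 weeks. A further 2 libraries came from mice given high-fat diet and L-NAME alone for 15 weeks (HFD + L-NAME), and 2 came from mice on chow. In every group the blood was taken into EDTA, spun over Ficoll, cleared of red cells by lysis, frozen and thawed, and read with 10x 3′ chemistry. The age and sex of the animals are not given in the sources used here, nor whether each library is a separate animal or a pool, so p-values measure the spread between these libraries and no more.

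The libraries held 71216133 to 122022000 UMIs in 8488 to 17997 barcodes, with medians of 5741 to 7043.5 UMIs per barcode. Filters left 12623 cells in the NO2-OA library, 10696 and 7165 cells in HFD + L-NAME libraries 1 and 2, and 14771 and 9716 cells in chow libraries 1 and 2. Pairs of libraries shared 28 to 77 barcodes, at most 0.613% of the smaller one. The classes carried the markers that named them, which describes the naming and is no independent check of it: B-like cells had 631 to 1365 CPM of Cd79a (counts per 1000000 UMIs of the class and library), naive T-like classes had 890 to 1757 CPM of Lef1, and neutrophil-like cells had 21439 to 61697 CPM of S100a8. Ficoll separation removes most neutrophils, and these made up 3.78% of kept cells in the NO2-OA library, 2.76% and 7.44% in HFD + L-NAME and 2.08% in chow library 1, and no neutrophil-like cluster was named in chow library 2. Conventional dendritic, plasmacytoid dendritic and cavity macrophage-like clusters were named in 2 or 3 libraries and in none of them for NO2-OA, so their levels rest on fewer libraries. Nor was a platelet-like cluster named in NO2-OA, though with the receptors allowed in clustering a cluster of 100 cells there was.

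Ccr2 was above all a classical monocyte transcript in this blood. Of its 23692 UMIs, 71.1% lay in the 1533 classical monocyte-like cells, where it reached 736 ± 227 CPM (SD, n = 5 libraries). By library that class had 954 CPM in NO2-OA, 761 and 637 CPM in HFD + L-NAME, and 402 and 926 CPM in chow. Conventional dendritic-like cells followed with 391 ± 255 CPM (SD, n = 3), from 278 CPM in HFD + L-NAME library 2 and 213 and 684 CPM in chow, which overlapped the monocytes. In chow library 2, 70 of the 92 cells of that class formed a cluster led by Retnla, Lyz1, Fn1, Ccl6 and Mrc1, with Cd209a and H2-Eb1 also among its leading genes, and 33 cells with like leading genes in HFD + L-NAME library 2 were named cavity macrophage-like. That cluster had 825 CPM of Ccr2, and without it the class had 236 ± 35.9 CPM (SD, n = 3) and did not overlap the monocytes. NK-like cells at 123 ± 26.9 CPM (n = 5) did not overlap the dendritic-like cells above them, and plasmacytoid dendritic-like cells averaged 71.7 CPM (n = 2). Non-naive CD4 T-like cells had 41.3 ± 8.98 CPM, and the non-classical monocytes, at 36.5 ± 26.0 CPM, overlapped them (n = 5 each). Memory CD8 T-like cells had 8.31 CPM, naive CD4 and naive CD8 T-like cells 2.59 and 2.50 CPM, and B-like cells 0.440 ± 0.171 CPM.

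At the level of single cells, 88.6% to 98.3% of classical monocyte-like cells per library had at least 1 Ccr2 UMI, at median depths of 11184 to 16705 UMIs. In B-like cells, which should lack the receptor, the share was 0.127% to 0.328% at median depths of 5194.5 to 7810 UMIs. After every cell was thinned to 1000 UMIs, 28.4% to 61.7% of the monocytes still had one. The thinning left out cells below that depth, which came to 0 to 3 classical monocyte-like cells and 22 to 55 B-like cells per library.

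Cx3cr1 had the opposite order in monocytes. Non-classical monocyte-like cells held 37.2% of its 13847 UMIs at 276 ± 68.8 CPM (SD, n = 5), with 252 CPM in NO2-OA, 243 and 321 CPM in HFD + L-NAME, and 195 and 369 CPM in chow. Classical monocyte-like cells had 122 ± 89.1 CPM, neutrophil-like cells 76.3 ± 26.6 CPM (n = 4) and conventional dendritic-like cells 73.9 ± 26.8 CPM (n = 3; 45.1 ± 28.6 CPM without the cluster led by Retnla), each overlapping its neighbour in the order. Below them stood the T-like and NK-like classes at 15.6 to 27.2 CPM and B-like cells at 9.85 ± 0.938 CPM. A Cx3cr1 UMI was seen in 62.2% to 86.8% of non-classical monocyte-like cells, at median depths of 6674 to 11051 UMIs, and in 4.76% to 7.25% of B-like cells. In an older GENCODE mouse annotation, of another build than the files', the Cx3cr1 gene model overlaps 9 other models, 3 of them on its own strand, and the Ccr9 model overlaps 6, with 2 on its own strand. Low values of Cx3cr1 and Ccr9 in lymphocytes are uncertain for that reason.

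In classical monocyte-like cells Cx3cr1 differed widely between libraries of the same group. It had 48.8 CPM in NO2-OA, 58.2 and 187 CPM in HFD + L-NAME, and 69.7 and 246 CPM in chow. The HFD + L-NAME and chow libraries numbered 2 were the high ones in both groups. The same libraries stood apart in single cells: among Ccr2-positive classical monocyte-like cells, 40.6% carried a Cx3cr1 UMI in NO2-OA, 44.9% and 89.2% in HFD + L-NAME, and 49.3% and 87.6% in chow. At 1000 UMIs per cell these shares were 4.84% in NO2-OA, 4.02% and 17.9% in HFD + L-NAME, and 4.48% and 20.9% in chow. The deposited file names split the libraries by the same number, with the NO2-OA library in set 1.

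**Figure D1:**
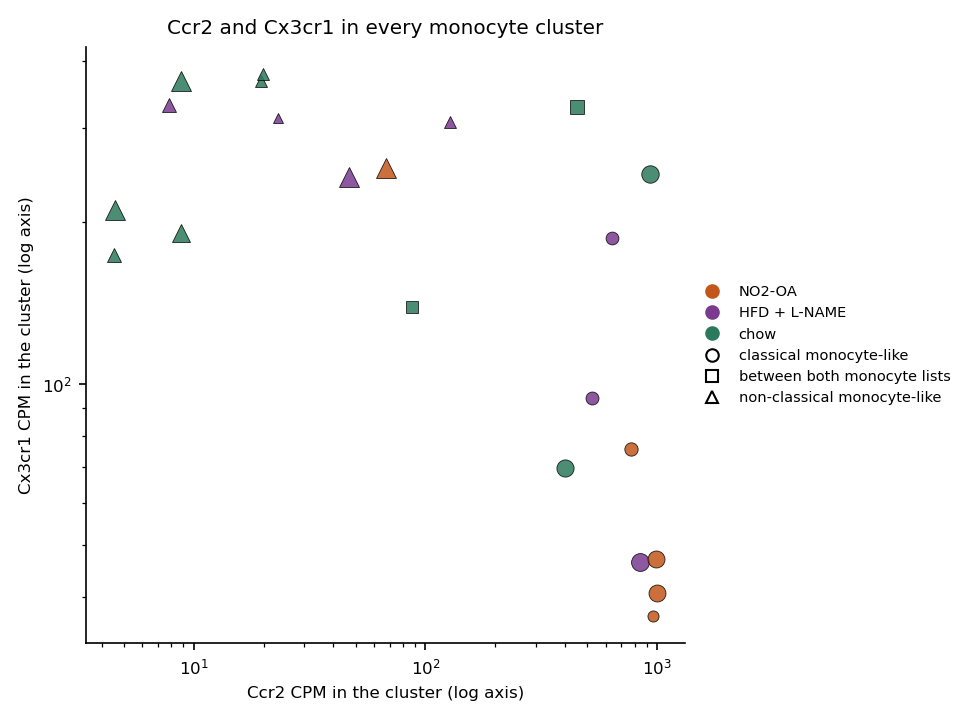
Ccr2 (CPM, horizontal log axis) against Cx3cr1 (CPM, vertical log axis) for each monocyte cluster, with 1 symbol per cluster, colours for the groups and shapes for classical, non-classical or in-between clusters. The non-classical clusters reach at most 127 CPM of Ccr2, the classical ones start at 402 CPM, and the in-between chow clusters have 87.6 and 453 CPM.

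Cxcr4, the marrow retention receptor, was spread over every leukocyte class. Its highest levels were in non-classical monocyte-like cells at 765 ± 167 CPM (SD, n = 5) and neutrophil-like cells at 735 ± 229 CPM (n = 4), which overlapped. The next classes did not overlap these: B-like cells had 322 ± 46.2 CPM, classical monocyte-like cells 266 ± 83.4 CPM and NK-like cells 259 ± 55.9 CPM (n = 5 each). Naive CD4 and naive CD8 T-like cells were lower, at 114 and 107 CPM, and erythroid-like cells had 25.6 CPM. B-like cells, 25293 in number, held 51.5% of the 101114 Cxcr4 UMIs. In non-classical monocyte-like cells 93.7% to 96.6% had a Cxcr4 UMI, against 5.13% to 16.1% of erythroid-like cells at median depths of 6293 to 10180.5 UMIs.

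Cxcr2 had the largest share of its UMIs in 1 class. Neutrophil-like cells held 95.2% of its 4504 UMIs, with 480 CPM in NO2-OA, 493 and 470 CPM in HFD + L-NAME, and 437 CPM in chow library 1. The 4 values averaged 470 ± 24.0 CPM (SD), and the next class, classical monocyte-like cells, had 1.79 CPM. A Cxcr2 UMI was present in 72.0% to 88.0% of neutrophil-like cells, at median depths of 4018 to 6186 UMIs, and in 0.220% to 0.513% of B-like cells. In the same neutrophil-like cells Cxcr4 varied more, at 434 CPM in NO2-OA, 704 and 824 CPM in HFD + L-NAME, and 977 CPM in chow library 1. Cxcr5 had 105 CPM there in NO2-OA, 71.8 and 86.9 CPM in HFD + L-NAME, and 44.2 CPM in chow library 1. Erythroid transcripts also differed in these cells, with a summed level of 17273 CPM in NO2-OA, 4353 and 5534 CPM in HFD + L-NAME and 173 CPM in chow library 1. In NO2-OA 73 of the 477 neutrophil-like cells, and in HFD + L-NAME library 2 23 of 533, formed clusters with Ngp and Camp, genes of immature neutrophils, among their leading genes, and neither HFD + L-NAME library 1 nor chow library 1 had such a cluster. Without these clusters Cxcr4 had 526 CPM in NO2-OA, 704 and 909 CPM in HFD + L-NAME and 977 CPM in chow library 1. Cxcr5 then had 143 CPM in NO2-OA, 71.8 and 93.5 CPM in HFD + L-NAME and 44.2 CPM in chow library 1, and Cxcr2 averaged 495 ± 45.2 CPM (SD, n = 4). The part of the erythroid transcripts in the Cxcr4 and Cxcr5 values was not tested, and no neutrophil test was run because chow library 2 had no such cluster.

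Ccr7, the lymph node entry receptor, was shared by B-like cells at 223 ± 16.4 CPM, naive CD8 T-like cells at 204 ± 44.0 CPM and naive CD4 T-like cells at 188 ± 63.3 CPM (SD, n = 5 each), which overlapped. Memory CD8 T-like cells had 97.3 ± 41.4 CPM and non-naive CD4 T-like cells 95.9 ± 22.3 CPM. The monocyte classes were near 0, with 1.25 CPM in classical and 1.11 CPM in non-classical monocyte-like cells. A Ccr7 UMI was seen in 55.1% to 82.8% of naive CD8 T-like cells, at median depths of 6361 to 10497 UMIs, in 57.7% to 68.0% of B-like cells and in 4.87% to 13.6% of erythroid-like cells. Which of the first 2 classes led depended on depth, since at 1000 UMIs per cell the shares were 13.1% to 22.5% in naive CD8 T-like and 18.5% to 20.9% in B-like cells.

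S1pr1, the exit receptor, was highest in CD4 T-like cells. Non-naive CD4 T-like cells had 297 ± 54.6 CPM and naive CD4 T-like cells 290 ± 24.3 CPM (SD, n = 5 each), which overlapped. They stood above naive CD8 T-like cells at 184 ± 10.5 CPM, B-like cells at 182 ± 12.7 CPM and memory CD8 T-like cells at 170 ± 28.2 CPM, which overlapped one another. Cavity macrophage-like cells averaged 97.5 CPM (n = 2), NK-like cells had 52.6 ± 33.1 CPM, and the monocyte classes 2.97 and 5.20 CPM. A UMI was found in 67.4% to 78.5% of non-naive CD4 T-like cells, at median depths of 5707 to 8951 UMIs, and in 2.61% to 3.75% of neutrophil-like cells. In cavity macrophage-like cells, at median depths of 24912.5 to 28125 UMIs, the share was 70.4% to 84.3%. At 1000 UMIs per cell it was 9.39% to 12.7% there and 15.0% to 30.1% in non-naive CD4 T-like cells, so the leading class depended on depth. The entry and exit receptors shared many cells: among Ccr7-positive naive CD4 T-like cells, 71.5% had an S1pr1 UMI in NO2-OA, 75.2% and 73.1% in HFD + L-NAME, and 69.3% and 79.8% in chow. Among the other cells of the class it was 62.0% in NO2-OA, 61.1% and 70.5% in HFD + L-NAME, and 63.1% and 70.6% in chow. Ccr7-positive cells were the deeper ones, with a median of 5769.5 UMIs against 4436 UMIs in NO2-OA, so the shares were also taken at 1000 UMIs per cell. There they were 22.0% of Ccr7-positive and 23.7% of other cells in NO2-OA, 25.0% against 22.3% and 22.8% against 15.4% in HFD + L-NAME, and 24.6% against 23.6% and 28.5% against 26.2% in chow. Ccr7-positive cells had the higher thinned share in 4 of 5 libraries and the lower one in NO2-OA.

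Cxcr5, the follicle receptor, was a B-like transcript, with 84.3% of its 29375 UMIs there and 156 ± 22.7 CPM (SD, n = 5). By library B-like cells had 193 CPM in NO2-OA, 133 and 149 CPM in HFD + L-NAME, and 160 and 146 CPM in chow. Neutrophil-like cells at 77.0 ± 25.8 CPM (n = 4), memory CD8 T-like cells at 50.2 ± 11.8 CPM and non-naive CD4 T-like cells at 33.4 ± 12.4 CPM lay below and did not overlap the B-like values. In B-like cells 43.9% to 58.2% had a Cxcr5 UMI, against 0.412% to 1.96% of non-classical monocyte-like cells. Ccr7 and Cxcr5 were often found in the same B-like cell: 58.3% of Ccr7-positive and 46.1% of other B-like cells had Cxcr5 in NO2-OA, against 46.7% and 59.7% of Ccr7-positive and 39.7% and 55.0% of other cells in HFD + L-NAME. In chow the shares were 50.8% and 49.7% of Ccr7-positive and 40.6% and 40.9% of other cells. Thinned to 1000 UMIs the gap shrank, to 18.4% against 16.3% in NO2-OA, 12.7% against 11.5% and 13.3% against 13.8% in HFD + L-NAME, and 14.8% against 13.4% and 14.7% against 13.1% in chow.

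Cxcr3 was the scarcest, with 1359 UMIs, and lay mostly in T-like cells past the naive stage. Memory CD8 T-like cells held 42.9% of them and non-naive CD4 T-like cells 30.2%. Non-naive CD4 T-like cells had 29.4 ± 7.26 CPM, memory CD8 T-like cells 23.4 ± 5.65 CPM and NK-like cells 13.9 ± 5.07 CPM (SD, n = 5 each), which overlapped, while naive CD8 and naive CD4 T-like cells had 1.20 and 0.367 CPM. Plasmacytoid dendritic-like cells averaged 38.1 CPM, from 28 UMIs in 2 libraries. A Cxcr3 UMI was seen in 14.6% to 25.7% of memory CD8 T-like cells, at median depths of 7517 to 13317.5 UMIs, and in at most 2.06% of neutrophil-like cells of a library. Among memory CD8 T-like cells, 19.7% of Ccr7-positive and 19.8% of other cells had Cxcr3 in NO2-OA, 17.4% and 29.2% against 14.7% and 22.5% in HFD + L-NAME, and 15.5% and 23.8% against 13.8% and 21.5% in chow. The share was higher in Ccr7-positive cells in 4 of 5 libraries, at unequal depth. At 1000 UMIs per cell only 0 to 4 cells had both transcripts in each of 4 libraries, too few to compare, and HFD + L-NAME library 2 had too few Ccr7-positive cells for a share.

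Ccr9 was highest in plasmacytoid dendritic-like cells, in which 1185 of its 11269 UMIs came from 53 cells. They had 1608 CPM in HFD + L-NAME library 2 and 1103 CPM in chow library 2, and every one of these cells had a Ccr9 UMI. Naive CD8 T-like cells came next with 61.1 ± 10.4 CPM (SD, n = 5), then B-like cells with 33.7 ± 4.84 CPM and naive CD4 T-like cells with 14.1 ± 1.86 CPM, with no overlap between neighbours in this order. The naive CD8 T-like values were 55.6 CPM in NO2-OA, 55.9 and 74.0 CPM in HFD + L-NAME, and 70.0 and 49.9 CPM in chow, so the 3 groups overlapped. A Ccr9 UMI was present in 25.2% to 41.4% of naive CD8 T-like cells and in 2.48% to 5.00% of non-classical monocyte-like cells.

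**Figure D2:**
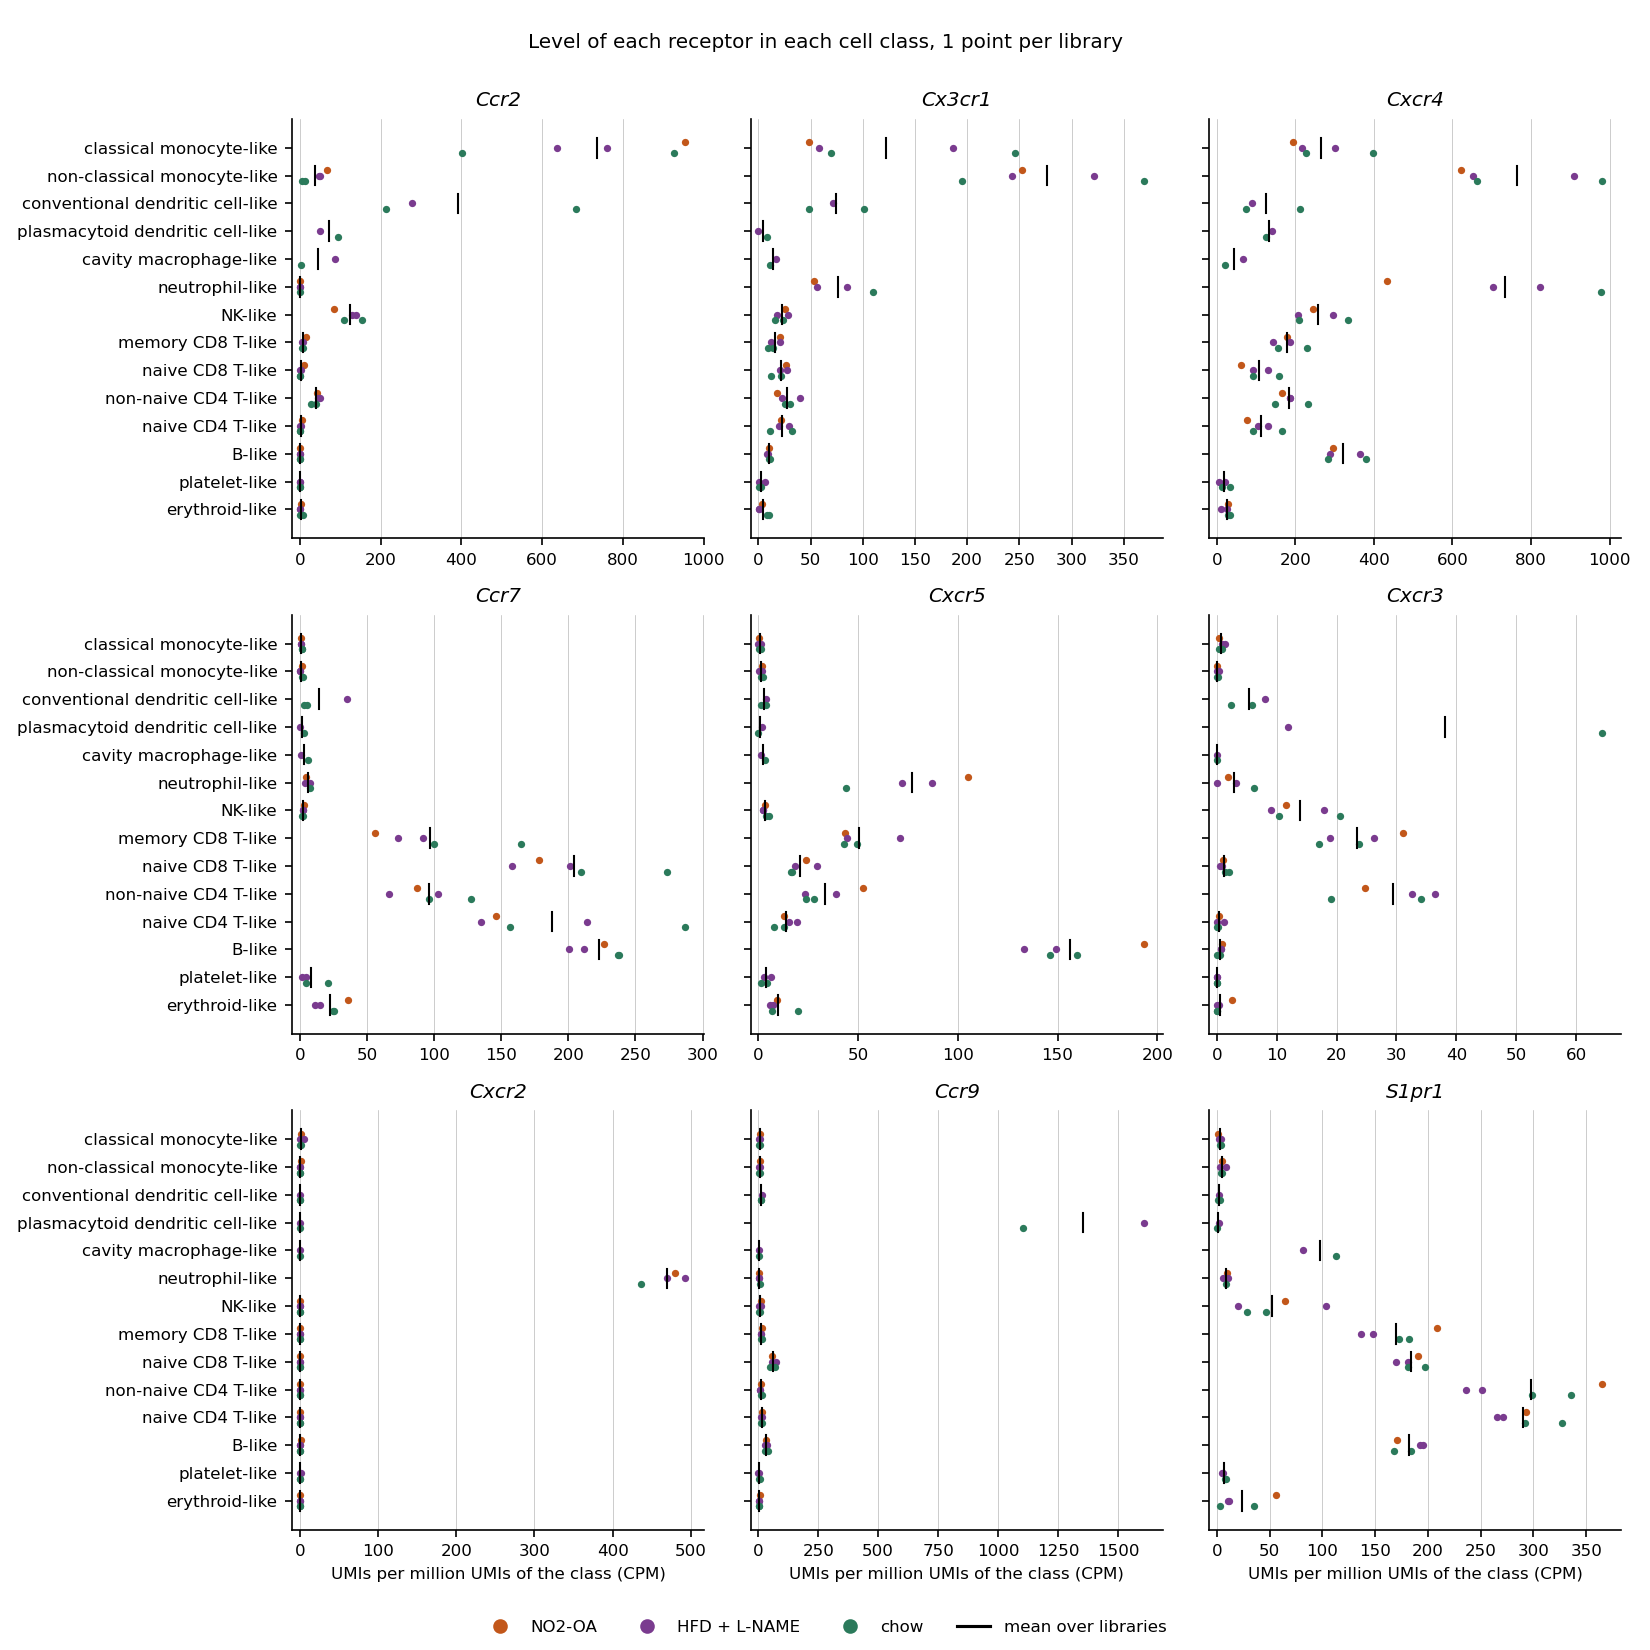
Level of each receptor (CPM, horizontal axis, 1 panel per receptor) in each cell class (vertical axis), with 1 point per library coloured by group and a black bar at the mean over libraries. Cxcr2 rises above the floor in neutrophil-like cells at 470 CPM, Ccr9 peaks in plasmacytoid dendritic-like cells, and Cxcr4 is high in several classes at once.

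The genes whose class pattern was most like each receptor were read from Pearson's r over the means of 14 classes, a description that carries no p, since the class means share libraries. For Cxcr2 they were Il36g, Retnlg and Nlrp12, each at r = 0.995, and Retnlg is itself one of the neutrophil naming markers. Those most like Ccr2 were Raph1 (0.936), Vwa5a (0.904) and Bscl2 (0.877), and those most like Cx3cr1 were Tktl1 (0.929), Relt (0.914) and Rab11fip1 (0.896). Cxcr4 was followed by Tfeb (0.944), Wwp2 (0.938) and Fmnl1 (0.931), and Ccr7 by Rapgef4 (0.922), Patj (0.909) and Fam169b (0.898). For S1pr1 they were Il27ra (0.940), Pced1b (0.921) and Trib2 (0.913), and for Ccr9 Matn2 (0.953), Kdm1b (0.928) and Dntt (0.915). The lowest likeness was that of Cxcr5, to Rftn2 (0.845), Ltb (0.839) and Zfp831 (0.819), and Cxcr3, to Coro2a (0.808), Ncald (0.798) and Farp1 (0.775).

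The first comparison asked which receptors differed in HFD + L-NAME blood from chow blood. None of them passed the test in any class. Of 63 pairs of receptor and class, 51 had enough counts, and 0 were called by edgeR's quasi-likelihood test at a Benjamini-Hochberg false discovery rate (FDR) under 0.05, where 0% of the 91510 gene and class pairs were called. At an unadjusted p under 0.05 there were 5 of 51 (9.80%), beside 2.21% of all pairs: Ccr2 in non-classical monocyte-like, naive CD8 and naive CD4 T-like cells, Ccr7 in memory CD8 T-like cells and Cxcr5 in naive CD4 T-like cells. DESeq2 called 1 of the 51, beside 0.0404% of all pairs, with 2 under 0.05 unadjusted, beside 1.18%. In 9 of 51 pairs (17.6%) both HFD + L-NAME libraries were above both chow libraries, beside 12.8% of all pairs, and in 10 (19.6%) both were below, beside 13.9%. These counts, and those for NO2-OA, compare edgeR's TMM-normalised values, whereas the CPM printed here are per total UMIs of the class, so a pair can overlap on one scale and not on the other. The median standard error (SE, taken from the fold change and its F statistic) was 0.32 on the log2 scale, so a fold of the median size, 1.18 in either direction, was within the error.

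Ccr2 in non-classical monocyte-like cells gave the lowest p in this comparison. It had 47.0 and 49.1 CPM in HFD + L-NAME (138 UMIs in each library) and 6.40 and 12.4 CPM in chow (35 and 61 UMIs). Both HFD + L-NAME libraries were above both chow libraries, a 5.14-fold difference (log2 2.36 ± 0.31 SE), which edgeR's quasi-likelihood test with Benjamini-Hochberg adjustment did not call (adjusted p = 0.476). DESeq2 called it (adjusted p = 3.26e-05), and so did edgeR with the replicate number as a block (adjusted p = 0.038) and without chow library 1 (0.0261) or chow library 2 (0.0021).

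The value changed with where the border between monocyte classes was drawn. In chow library 1 a cluster of 79 monocytes with 87.6 CPM of Ccr2, and in chow library 2 one of 154 monocytes with 453 CPM, carried markers of both monocyte kinds and were left unnamed. In HFD + L-NAME library 2 a cluster of 68 cells with 127 CPM was named non-classical, beside clusters at 7.82 and 23.2 CPM. With the in-between clusters joined to the non-classical class, a grouping chosen after these values were seen, Ccr2 had 47.0 and 49.1 CPM in HFD + L-NAME and 15.4 and 133 CPM in chow. The groups then overlapped and the sign turned (log2 −0.61 ± 1.05). This grouping left HFD + L-NAME at 360 and 243 cells and added cells to chow only, from 725 and 509 to 804 and 663. Both added clusters had more Ccr2 than the chow class they joined, so the chow values could only rise. In HFD + L-NAME library 1 a cluster of 93 cells with 521 CPM of Ccr2 was named classical and stayed so. With all monocyte clusters together the values were 498 and 249 CPM in HFD + L-NAME and 130 and 387 CPM in chow (log2 0.61 ± 0.57).

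In classical monocyte-like cells themselves, Ccr2 had 761 and 637 CPM in HFD + L-NAME and 402 and 926 CPM in chow. Both HFD + L-NAME values lay between the chow values (log2 0.11 ± 0.37, adjusted p = 1 by edgeR). Cx3cr1 in non-classical monocyte-like cells had 243 and 321 CPM in HFD + L-NAME and 195 and 369 CPM in chow, again inside the chow range (log2 0.01 ± 0.29). Within libraries of the same number, Ccr2 in classical monocyte-like cells was higher in HFD + L-NAME by log2 0.99 in number 1 and had a difference of log2 −0.54 in number 2.

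Low levels of Ccr2 in T-like cells also gave small unadjusted p-values. Naive CD8 T-like cells had 2.31 and 0.441 CPM in HFD + L-NAME, from 15 and 1 UMIs, and 0.389 and 0.128 CPM in chow, from 7 and 1 UMIs. Both HFD + L-NAME libraries were above both chow libraries (log2 2.51 ± 0.79, adjusted p = 1 by edgeR), but without HFD + L-NAME library 1 the difference was 0.57. Naive CD4 T-like cells had 3.07 and 1.63 CPM in HFD + L-NAME and 0.456 and 1.12 CPM in chow (log2 1.80 ± 0.68, adjusted p = 1 by edgeR), and the difference was 1.10 without HFD + L-NAME library 1, 1.20 without chow library 1 and 2.58 without chow library 2. Erythroid and neutrophil transcripts were also higher in HFD + L-NAME in these classes. In naive CD8 T-like cells the 8 erythroid markers summed to 189 and 510 CPM in HFD + L-NAME and 94.6 and 37.7 CPM in chow, and the 10 neutrophil markers to 14.4 and 32.2 CPM in HFD + L-NAME and 6.40 and 2.43 CPM in chow. In naive CD4 T-like cells the erythroid sums were 258 and 440 CPM in HFD + L-NAME and 117 and 52.6 CPM in chow, and the neutrophil sums 17.0 and 38.2 CPM in HFD + L-NAME and 5.84 and 2.52 CPM in chow. The part of these transcripts in the Ccr2 values was not tested. Ccr2 itself averaged 2.04 CPM in erythroid-like and 0.329 CPM in neutrophil-like cells, beside 736 CPM in classical monocyte-like cells. Across the 7 classes tested, which come from the same 4 libraries, the Ccr2 log2 fold change of HFD + L-NAME over chow was positive in 7. The groups did not overlap in 4 of them, beside 12.8% of all gene and class pairs, and 1 of the 4 is the non-classical class whose sign turned with the in-between clusters joined. Within libraries numbered 1 the Ccr2 difference was positive in every class. Within those numbered 2 it was log2 −0.87 in B-like, −0.54 in classical monocyte-like and −0.05 in memory CD8 T-like cells, and positive in the other classes.

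The Ccr7 log2 fold change of HFD + L-NAME over chow was negative in 5 of 5 classes tested, which come from the same libraries. For Ccr7 the groups did not overlap in 3 of these classes, beside 13.9% of all gene and class pairs lower in every library. In memory CD8 T-like cells it had 73.4 and 92.0 CPM in HFD + L-NAME and 100.0 and 165 CPM in chow (log2 −0.66 ± 0.29, adjusted p = 1 by edgeR). In naive CD8 T-like cells it had 158 and 201 CPM in HFD + L-NAME and 210 and 274 CPM in chow (log2 −0.40 ± 0.27). In B-like cells it had 211 and 200 CPM in HFD + L-NAME and 238 and 237 CPM in chow (log2 −0.20 ± 0.20). The groups did not overlap in these 3 classes, and the difference in memory CD8 T-like cells was called without chow library 1 (log2 −1.01, adjusted p = 0.0102) and was −0.21 without chow library 2.

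Cxcr5 in naive CD4 T-like cells, where it was low, had 19.5 and 15.5 CPM in HFD + L-NAME and 12.9 and 7.69 CPM in chow. The groups did not overlap (log2 0.86 ± 0.34, adjusted p = 1 by edgeR). In B-like cells, its main class, Cxcr5 had 133 and 149 CPM in HFD + L-NAME and 160 and 146 CPM in chow, which overlapped as CPM and were lower in both HFD + L-NAME libraries after TMM normalisation (log2 −0.11 ± 0.19). S1pr1 in non-naive CD4 T-like cells had 251 and 237 CPM in HFD + L-NAME and 298 and 336 CPM in chow, with no overlap (log2 −0.35 ± 0.27, adjusted p = 1 by edgeR). That class joins regulatory T and other clusters, and the part of their mix in this difference was not tested. In B-like cells the order was the other way, with 196 and 192 CPM of S1pr1 in HFD + L-NAME and 184 and 168 CPM in chow, also with no overlap (log2 0.15 ± 0.19). Over its 7 classes the S1pr1 fold change was positive in 2 and negative in 5.

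Cxcr3, Cxcr4 and Ccr9 overlapped between the groups in the classes given here. Among the 4 classes tested for Cxcr3, however, both HFD + L-NAME libraries were above both chow libraries in 1 and below both in 1 (log2 −1.17 to 1.18). For Ccr9 both were below in 1 of 7 classes and above in 0, and for Cxcr4 the groups overlapped in all 7. Of all gene and class pairs, 12.8% lay above and 13.9% below in this way. Cxcr3 in non-naive CD4 T-like cells had 36.4 and 32.6 CPM in HFD + L-NAME and 19.0 and 34.0 CPM in chow (log2 0.42 ± 0.34, adjusted p = 1 by edgeR). The memory CD8 list summed in this class to 4330 and 641 CPM in HFD + L-NAME and 1302 and 2410 CPM in chow. Ccl5, a member of the list, was also among the leading genes of clusters of this class, so the sum does not measure CD8 cells alone. The part of these transcripts in the Cxcr3 values was not tested. Cxcr4 log2 fold changes were between −0.23 and 0.00 in the 7 classes, and its B-like values, 365 and 288 CPM in HFD + L-NAME and 379 and 283 CPM in chow, split by library number and not by group. Ccr9 in naive CD8 T-like cells differed by log2 0.15 ± 0.26.

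Summed over all kept cells, where fewer cells of a class and less RNA per cell cannot be told apart, 0 of 9 receptors were called by edgeR or DESeq2 in either comparison. Of all genes edgeR called 0% in both, and DESeq2 called 0.215% for HFD + L-NAME over chow and 0.683% for NO2-OA over HFD + L-NAME. None had an unadjusted p under 0.05. Of the 20506 genes tested, edgeR gave one to 2.9% and DESeq2 to 3.42% for HFD + L-NAME over chow, and edgeR to 2.86% and DESeq2 to 3.78% for NO2-OA over HFD + L-NAME. Both HFD + L-NAME libraries lay above both chow libraries for 2 of 9 receptors (beside 12.6% of genes) and below them for 1 (beside 14.1%), and the NO2-OA library lay above both HFD + L-NAME libraries for 3 (beside 34.1%) and below them for 3 (beside 30.7%). Cxcr2 had 10.6 and 29.0 CPM in HFD + L-NAME and 6.47 and 0.661 CPM in chow (log2 2.54 ± 1.22). That order was also the order of the libraries by neutrophil-like share. Ccr7 had 139 and 115 CPM in HFD + L-NAME and 159 and 182 CPM in chow, without overlap (log2 −0.34 ± 0.21).

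**Figure D3:**
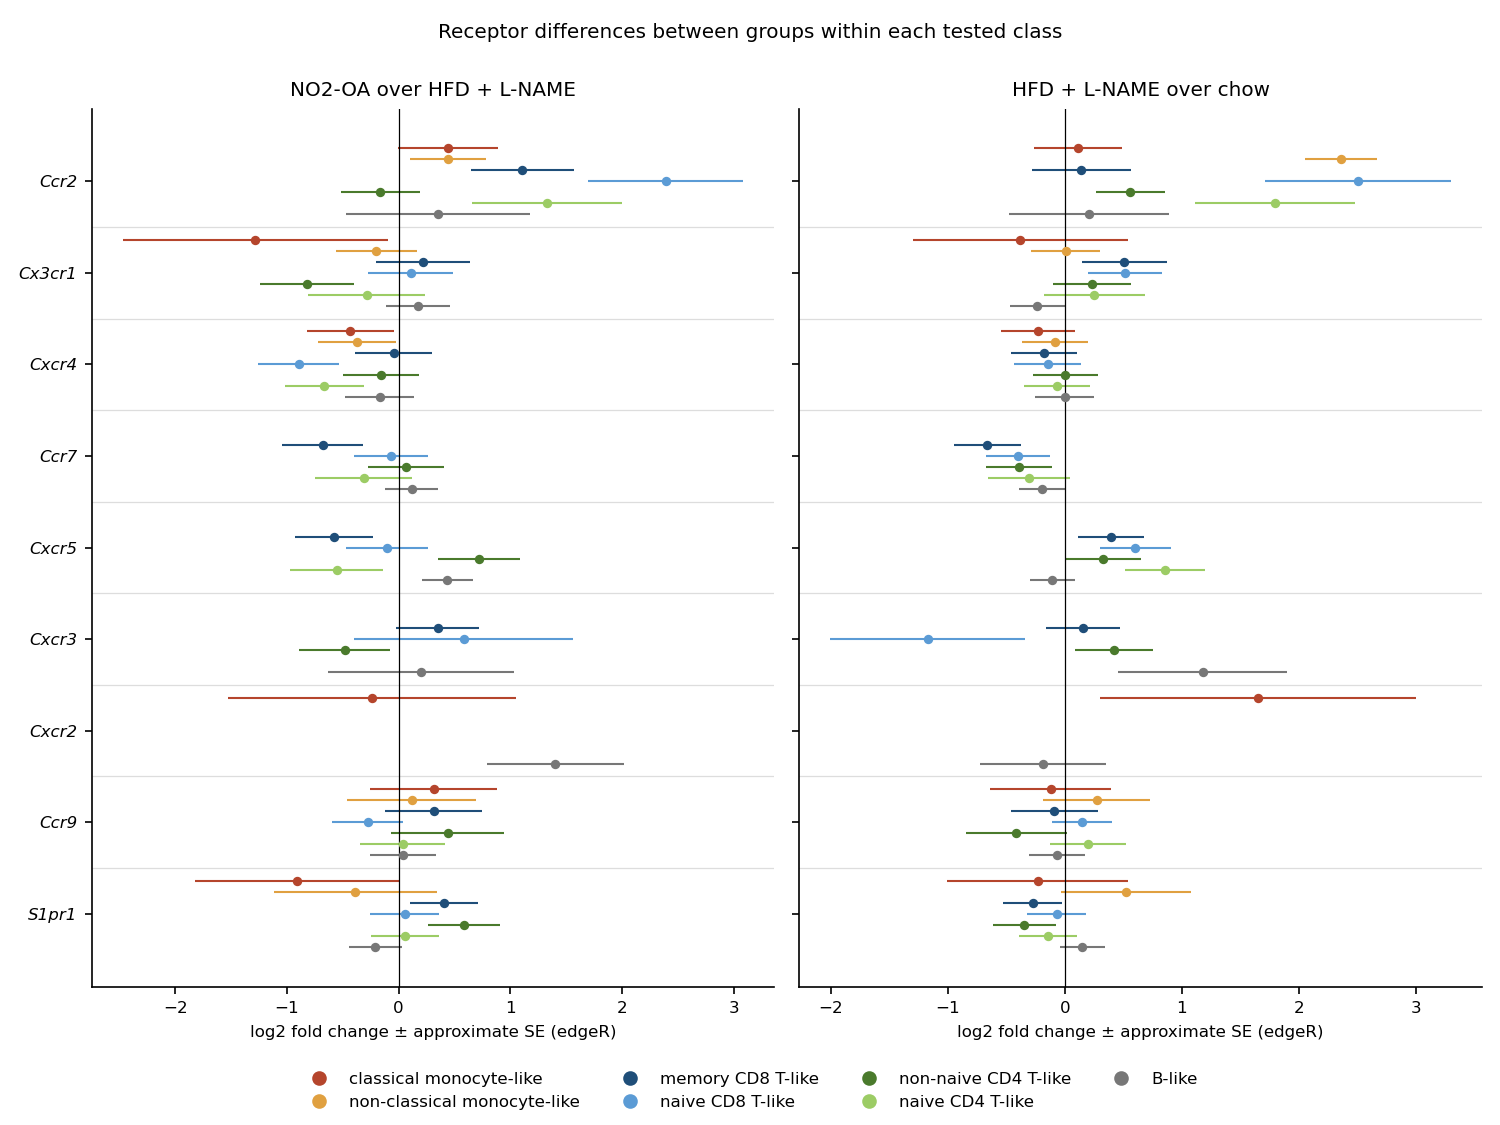
Log2 fold change with its SE (horizontal axis) of each receptor in the 7 classes tested, for NO2-OA over HFD + L-NAME at the left and HFD + L-NAME over chow at the right. Most bars cross or come near 0, and the widest departures are those of Ccr2, in naive CD8 T-like cells for both comparisons and in non-classical monocyte-like cells for HFD + L-NAME over chow.

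The second comparison set the NO2-OA library against HFD + L-NAME, asking what the fatty acid added to the diet model. None of the receptors passed here either: 0 of 51 pairs were called by edgeR, where 0.0109% of the 91510 gene and class pairs were called. By direction, 0 receptor pairs were called higher, beside 0.00109% of all pairs, and 0 lower, beside 0.00983%. At an unadjusted p under 0.05 there were 3 of 51 (5.88%), beside 1.99% of all pairs: Ccr2 in naive CD8 and memory CD8 T-like cells and Cxcr4 in naive CD8 T-like cells. DESeq2 called 0, beside 0.156% of all pairs, with 2 under 0.05 unadjusted, beside 1.25%. The NO2-OA value was above both HFD + L-NAME values in 19 of 51 pairs (37.3%), beside 32.3% of all pairs, and below both in 16 (31.4%), beside 31.5%, shares near the background. The 1 NO2-OA library was assumed to vary like the others, and both comparisons use the same 2 HFD + L-NAME libraries.

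Ccr2 in naive CD8 T-like cells had the largest fold. It had 9.26 CPM in NO2-OA, from 100 UMIs, and 2.31 and 0.441 CPM in HFD + L-NAME, from 15 and 1 UMIs (log2 2.39 ± 0.69, adjusted p = 1 by edgeR). The UMIs lay in 78 of 1580 cells in NO2-OA, which is 4.94% with an exact binomial 95% interval of 3.92% to 6.12%, and in 11 of 816 and 1 of 215 cells in HFD + L-NAME, which is 1.35% and 0.465%. Median depths of the class were 6361 UMIs in NO2-OA and 7638.5 and 10497 UMIs in HFD + L-NAME, and in B-like cells of these libraries the share was 0.328% in NO2-OA and 0.203% and 0.204% in HFD + L-NAME. The interval covers counting error only. Leaving out a chow library, which takes no part in the difference but changes the estimate of the spread, made edgeR call it (adjusted p = 0.00845 without chow library 1 and 0.00685 without chow library 2). Without HFD + L-NAME library 1 the log2 fold change was 4.33, and without library 2 it was 1.87.

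The Ccr2 fold change of NO2-OA over HFD + L-NAME was positive in 6 of 7 classes and negative in non-naive CD4 T-like cells, the T-like class with the most Ccr2. NO2-OA lay above both HFD + L-NAME libraries in 5 of the 7, beside 32.3% of all gene and class pairs, and below both in 1, beside 31.5%, and every class has the same single NO2-OA library. Non-naive CD4 T-like cells had 43.1 CPM in NO2-OA and 51.0 and 45.1 CPM in HFD + L-NAME (log2 −0.16 ± 0.36). NK-like cells, which were not tested, had 85.2 CPM in NO2-OA and 128 and 140 CPM in HFD + L-NAME. Memory CD8 T-like cells had 15.7 CPM of Ccr2 in NO2-OA and 6.15 and 7.25 CPM in HFD + L-NAME (log2 1.11 ± 0.46, adjusted p = 1 by edgeR). Naive CD4 T-like cells had 6.70 CPM in NO2-OA and 3.07 and 1.63 CPM in HFD + L-NAME (log2 1.33 ± 0.67). In both classes the NO2-OA library was above both others.

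Marker lists of other cells were summed in the same classes, and the part of these transcripts in the Ccr2 values was not tested. The summed level of the classical monocyte list in naive CD8 T-like cells was 141 CPM in NO2-OA and 160 and 242 CPM in HFD + L-NAME, with 8 of 8 markers above 0 in NO2-OA and 6 of 8 in each HFD + L-NAME library. In naive CD4 T-like cells it was 135 CPM in NO2-OA and 145 and 239 CPM in HFD + L-NAME, and in memory CD8 T-like cells 434 CPM in NO2-OA and 558 and 732 CPM in HFD + L-NAME. The monocyte list includes Ly6c2, so these sums do not measure monocyte RNA alone. With the receptors allowed in clustering, Ly6c2 was among the leading genes of a memory CD8 T-like cluster in HFD + L-NAME library 1. The 10 neutrophil markers summed in naive CD8 T-like cells to 35.8 CPM in NO2-OA and 14.4 and 32.2 CPM in HFD + L-NAME, and the 8 erythroid markers to 397 CPM in NO2-OA and 189 and 510 CPM in HFD + L-NAME. The list of memory CD8 genes summed in naive CD8 T-like cells to 612 CPM in NO2-OA and 730 and 859 CPM in HFD + L-NAME. That list includes Cd8a and Cd8b1, which also name the naive CD8 T-like class, so the sum does not measure memory cells alone.

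In classical monocyte-like cells Ccr2 had 954 CPM in NO2-OA and 761 and 637 CPM in HFD + L-NAME (log2 0.44 ± 0.45, adjusted p = 1 by edgeR). In non-classical monocyte-like cells it had 67.4 CPM in NO2-OA and 47.0 and 49.1 CPM in HFD + L-NAME (log2 0.44 ± 0.34). The NO2-OA library was highest in both. Over all kept cells Ccr2 had 112 CPM in NO2-OA and 64.3 and 37.5 CPM in HFD + L-NAME (log2 1.04 ± 0.84), while classical monocyte-like cells numbered 606 in NO2-OA and 356 and 89 in HFD + L-NAME.

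The Cxcr4 log2 fold change of NO2-OA over HFD + L-NAME was negative in 7 of 7 classes, and the NO2-OA value lay below both HFD + L-NAME libraries in 5, beside 31.5% of all gene and class pairs, with the same NO2-OA library in every class. In naive CD8 T-like cells it had 61.8 CPM in NO2-OA and 92.4 and 130 CPM in HFD + L-NAME (log2 −0.90 ± 0.36, adjusted p = 1 by edgeR). In non-classical monocyte-like cells it had 622 CPM in NO2-OA and 909 and 651 CPM in HFD + L-NAME (log2 −0.38 ± 0.35), and in B-like cells 295 CPM in NO2-OA and 365 and 288 CPM in HFD + L-NAME (log2 −0.17 ± 0.31), where NO2-OA lay inside the other 2. Over all kept cells it had 208 CPM in NO2-OA and 296 and 252 CPM in HFD + L-NAME (log2 −0.49 ± 0.31). Platelet transcripts were also lowest in NO2-OA, with a summed level of 24.8 to 153 CPM over the 7 tested classes there and 135 to 765 CPM in the other libraries, and the part of either in the other was not tested.

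Ccr7 in memory CD8 T-like cells was lowest in NO2-OA, with 56.4 CPM against 73.4 and 92.0 CPM in HFD + L-NAME (log2 −0.68 ± 0.36, adjusted p = 1 by edgeR). In naive CD8 T-like cells its NO2-OA value of 178 CPM lay between the 158 and 201 CPM of HFD + L-NAME (log2 −0.07 ± 0.33). In B-like cells, where Ccr7 was highest, it had 226 CPM in NO2-OA, above the 211 and 200 CPM of HFD + L-NAME (log2 0.12 ± 0.24).

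The S1pr1 fold change of NO2-OA over HFD + L-NAME was positive in 4 of 7 classes and negative in 3. S1pr1 in non-naive CD4 T-like cells had 365 CPM in NO2-OA and 251 and 237 CPM in HFD + L-NAME (log2 0.58 ± 0.32), and in memory CD8 T-like cells 208 CPM in NO2-OA and 148 and 137 CPM in HFD + L-NAME (log2 0.40 ± 0.31). The NO2-OA library was the highest of the 3 in both classes. The non-naive CD4 T-like class joins regulatory T and other clusters. With the receptors allowed in clustering, its regulatory T clusters held 213 cells beside 438 others in NO2-OA. In HFD + L-NAME library 1 they held 60 beside 277, and in chow 185 beside 382 and 124 beside 330. In HFD + L-NAME library 2 the class was a cluster of 126 cells, not split in this way. The part of this mix in the values of the class was not tested. In B-like cells S1pr1 had 170 CPM in NO2-OA, below the 196 and 192 CPM of HFD + L-NAME (log2 −0.21 ± 0.23). Cd4 transcripts were present in the memory CD8 T-like class of NO2-OA at 26.2 CPM, against 2.0 and 3.9 CPM in HFD + L-NAME, and their part in the S1pr1 and Ccr7 values was not tested.

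Cxcr5 in B-like cells had 193 CPM in NO2-OA, above the 133 and 149 CPM of HFD + L-NAME (log2 0.43 ± 0.23, adjusted p = 1 by edgeR). Cxcr3 in non-naive CD4 T-like cells had 24.8 CPM in NO2-OA, below the 36.4 and 32.6 CPM of HFD + L-NAME (log2 −0.48 ± 0.41). In naive CD8 T-like cells Ccr9 had 55.6 CPM in NO2-OA, close to the lower of 55.9 and 74.0 CPM in HFD + L-NAME (log2 −0.28 ± 0.32). Cx3cr1 in non-classical monocyte-like cells had 252 CPM in NO2-OA, between the 243 and 321 CPM of HFD + L-NAME, though below both after TMM normalisation (log2 −0.20 ± 0.36). Over its 7 classes the Cx3cr1 log2 fold change ran from −1.28 to 0.22, positive in 3 and negative in 4. In classical monocyte-like cells NO2-OA differed by log2 −0.29 from HFD + L-NAME library 1 and by −1.89 from library 2. In non-naive CD4 T-like cells Cx3cr1 had 18.1 CPM in NO2-OA, below the 39.7 and 22.6 CPM of HFD + L-NAME (log2 −0.82 ± 0.42, adjusted p = 1 by edgeR). The memory CD8 list summed in that class to 511 CPM in NO2-OA and 4330 and 641 CPM in HFD + L-NAME. Ccl5, a member of the list, was also among the leading genes of clusters of that class, so the sum does not measure CD8 cells alone. The part of these transcripts, and of regulatory T cells, in the Cx3cr1, Cxcr3 and S1pr1 values of the class was not tested.

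**Figure D4:**
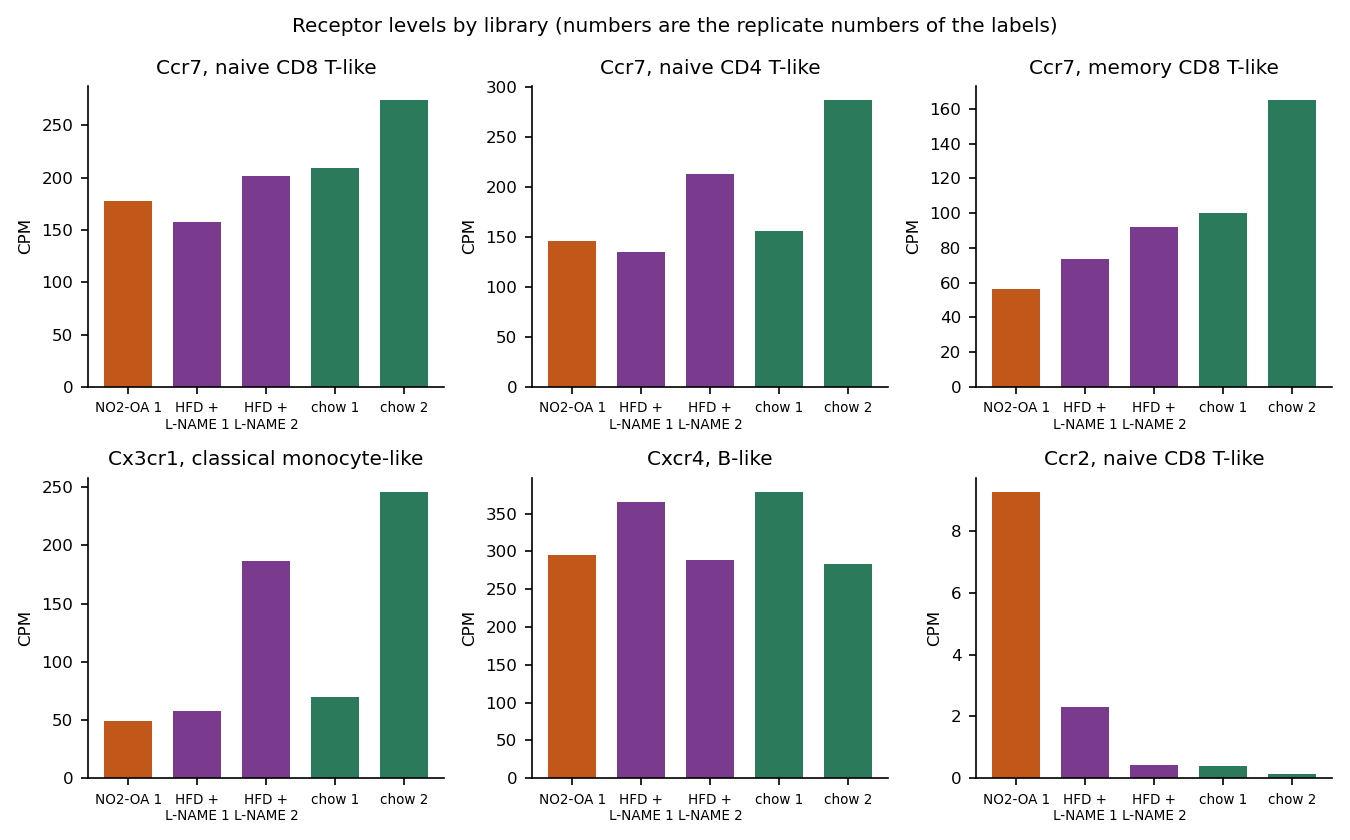
Level (CPM, vertical axis from 0) of 6 pairs of receptor and class in each of the 5 libraries, 1 bar per library, with NO2-OA at the left, then HFD + L-NAME, then chow. Ccr7 bars are tallest in chow library 2, Cx3cr1 in classical monocyte-like cells is tall in the libraries numbered 2, and Ccr2 in naive CD8 T-like cells reaches 9.26 CPM in NO2-OA.

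A wider list of 71 genes was read in the same fits: 15 other chemokine receptors, 11 other guidance receptors, 22 regulators and signal transducers, and 23 ligands and genes of sphingosine 1-phosphate handling. Between 37 and 54 of them were tested per class. In HFD + L-NAME over chow 0 were called in any class. In NO2-OA over HFD + L-NAME 1 was called: Pf4, a platelet chemokine also known as Cxcl4, fell in naive CD4 T-like cells, to 12.97 CPM in NO2-OA against 214 and 161 CPM in HFD + L-NAME (log2 −3.93 ± 0.40, adjusted p = 0.0176 by edgeR). Pf4 is also one of the 10 platelet naming markers, whose summed level in that class was 37.1 CPM in NO2-OA and 506 and 400 CPM in HFD + L-NAME. Platelet-like cells made up 5.08% and 23.1% of kept cells in HFD + L-NAME, and no platelet-like cluster was named in NO2-OA. With the receptors allowed in clustering, a NO2-OA cluster of 100 cells was named platelet-like. The part of platelet material in the Pf4 values was not tested. Ppbp, another platelet chemokine of the list, is named here after its values were seen. It had 8.33 CPM in NO2-OA and 100 and 84.2 CPM in HFD + L-NAME in the same cells (log2 −3.54 ± 0.58, adjusted p = 0.0807 by edgeR).

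Of the most abundant genes of that list, Dock2 and Elmo1, which together activate Rac for leukocyte migration, had log2 fold changes of NO2-OA over HFD + L-NAME between −0.35 and 0.39 in the 7 classes. Klf2, a transcription factor that drives S1pr1, had 564 CPM in NO2-OA and 932 and 793 CPM in HFD + L-NAME in naive CD4 T-like cells (log2 −0.69 ± 0.37). Its NO2-OA value was below both others there. Cd69, which binds S1pr1 and takes it off the cell surface, had 533 CPM in NO2-OA, 532 and 544 CPM in HFD + L-NAME and 465 and 331 CPM in chow in these cells (HFD + L-NAME over chow, log2 0.51 ± 0.27, adjusted p = 1 by edgeR). In naive CD4 T-like cells 16 of the 43 list genes tested were above both HFD + L-NAME libraries in NO2-OA and 20 were below both, beside 33.3% above and 32.3% below of all 13826 genes of that class, and the median log2 fold change of the list was −0.10, beside −0.00 over all genes tested. The counts differed by class. Non-classical monocyte-like cells had 9 above and 23 below of 47, beside 32.9% and 33.3% of all genes. Classical monocyte-like cells had 20 above and 18 below of 48, beside 29.6% and 29.1%.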

How the data were processed

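The deposited matrices hold raw UMI counts per gene and barcode, made with Cell Ranger 7.1.0, per the file headers. bcl2fastq, Cell Ranger and genome build mm39 are named in the submitters' processing notes, and the annotation release is not given in the sources used here. Counts of 5 libraries were used as the authors deposited them: 1 of HFD + L-NAME with NO2-OA, 2 of HFD + L-NAME and 2 of chow.

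Barcodes with at least 200 genes and under 10% mitochondrial UMIs were kept, and the top 0.8% per 1000 barcodes by scrublet doublet score were removed, 6.79% to 14.4% of a library. Each library was clustered alone in scanpy 1.11.5 (2000 variable genes, 40 components, 20 neighbours, Leiden resolution 1 with leidenalg 0.10.2), without the 9 receptors. Clusters were named from marker lists, and the non-naive CD4 T-like class takes in regulatory T clusters. The receptors, the lists and the naming thresholds were chosen with earlier results of these data known, and the thresholds after the clusters had been seen, so cell classes are rebuilt here and may differ from the authors' own. UMIs were summed per library and class. The 7 classes holding 50 cells or more in each library, and all kept cells, were fitted with edgeR 4.0.16 (quasi-likelihood, TMM, filterByExpr, R 4.3.3), 1 fit per class over 5 libraries and 3 groups, with Benjamini-Hochberg adjustment over all genes of the class at 0.05. NK-like, neutrophil-like, platelet-like, erythroid-like, dendritic-like and cavity macrophage-like classes were described and not tested.

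All 9 receptors are named. Of the wider list, up to 4 genes past the threshold by smallest p are named per class and contrast, otherwise the 4 with the highest mean CPM. Genes most like a receptor are the 3 with the highest Pearson's r of log2(CPM + 1) over class means, among genes with at least 20 CPM in the receptor's highest class. The fit was tested on simulated counts: for HFD + L-NAME over chow, 53.2% to 60.0% of 2-fold and 77.6% to 100% of 4-fold changes were recovered over the 16441 genes run in B-like and 10524 genes run in classical monocyte-like cells, while 0.0369% and 0.0194% of unchanged genes were called. Every simulated gene had the same fixed spread between libraries, which was not estimated from these data. The rates are therefore no measure of the power to call a receptor here. UMIs remove PCR copies, and intervals on shares of cells cover counting error only. The alternatives tried were doublets kept, resolution 2, receptors allowed in clustering, cells thinned to 1000 UMIs, a mitochondrial limit of 5%, edgeR with every gene kept, edgeR with the size factors of DESeq2, DESeq2 1.42.0 itself, the replicate number as a block, the 4 HFD + L-NAME and chow libraries alone, each library left out, and, added after the data were seen, 2 groupings of monocytes, the dendritic-like class without its cluster led by Retnla, and the neutrophil-like class without its clusters with Ngp and Camp.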

Additional observations from a re-analysis of the deposited data

How the results depend on the processing

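Of 26 receptor fold changes followed through 219 alternatives that keep every library, 208 kept their direction and their side of the threshold, 3 became called and 8 changed sign. For HFD + L-NAME over chow, where edgeR called 0 receptor and class pairs, DESeq2, no filter on low counts and the replicate block each called 1, Ccr2 in non-classical monocyte-like cells, and leaving out 1 library gave 0 to 2 (2 without chow library 1). For NO2-OA over HFD + L-NAME the count was 0 under the alternatives and 0 to 1 with a library left out. For the wider list the main count was 1, with 13 under DESeq2, 22 under the replicate block and 0 to 28 with a library left out (15 without chow library 1, 28 without chow library 2, 10 and 19 without HFD + L-NAME library 1 or 2, 0 without the NO2-OA library, which leaves 1 contrast). Of all gene and class pairs over both contrasts edgeR called 0.00546%, beside 0.161% of the list's; the shares were 0.0983% and 2.1% under DESeq2, 0.27% and 3.55% under the block, and 0% to 0.571% and 0% to 4.58% with a library left out. The cause was not tested. Signs turned for Ccr2 in non-classical monocyte-like cells (HFD + L-NAME over chow, −0.61 with in-between clusters joined), and for fold changes near 0: Cx3cr1 in the same cells (−0.021 without the filter, −0.0015 at resolution 2, −0.032 thinned, and, for NO2-OA over HFD + L-NAME, 0.10 under the block), Cxcr4 in the same cells (0.026 thinned, 0.069 joined) and Cxcr2 in classical monocyte-like cells (NO2-OA over HFD + L-NAME, 0.38 under the block). With a library left out, HFD + L-NAME over chow ran from −0.36 to 0.84 for Ccr2 in classical monocyte-like cells, −0.35 to 0.48 for Cx3cr1 and −0.38 to 0.28 for Cxcr4 in non-classical monocyte-like cells, and −0.036 to 0.36 for Ccr9 in naive CD8 T-like cells. Of 81 levels in the highest class under the alternatives, 80 stayed within 1 SD, and Cxcr2 in neutrophil-like cells was 375 CPM with doublets kept. Libraries with the same number deviated together with r = 0.0755 to 0.355 over genes in the 7 classes and 0.395 over all kept cells, but the labels do not say what the number marks and only 2 pairs exist, so the pairing is not established. With 2 libraries a group and 1 for NO2-OA, a median SE of 0.32 and 0.37 on the log2 scale limits what could be called.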
